A study of Mus musculus with 30 samples.

Results

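Transcripts of 7 genes of the acute-phase response, *Saa3*, *Lcn2*, *Hp*, *Orm1*, *Ptx3*, *Cp* and *Steap4*, were measured by RNA sequencing in whole BM and in F4/80+ cells sorted from visceral adipose tissue (adipose tissue macrophages, ATMs). The genes were chosen by symbol from the gene column of the count tables of both tissues. They are 7 of 13353 genes in BM and 7 of 17059 genes in ATMs, and each of them was listed and tested in both. The list was drawn up when the BM difference in *Saa3* and *Lcn2* between Vehicle and WT was already known. BM values of Vehicle vs WT, and BM comparisons with the same Vehicle or WT libraries, are therefore given as a description without p-values. How far ATM values entered the choice is not known.

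Each tissue had 15 libraries, 3 for each of 5 groups. All recipients were irradiated with 700 and 400 cGy and transplanted with BM of *Shp2E76K/+*;LysM-Cre+ mice (CD45.2+) and of Boy/J competitor mice (CD45.1+), so that, by the study's methods, the control group carried mutant cells too. *Shp2E76K/+* is an activating allele of the phosphatase SHP2, and LysM-Cre switches it on in myeloid cells. The groups were WT recipients (WT) and leptin-deficient, obese *Ob/Ob* recipients given, for 30 days from 8 weeks after transplantation, vehicle (Vehicle), the GLP-1 receptor agonist beinaglutide at 3 mg/kg (GLP1), an anti–IL-17A antibody at 200 µg per mouse 3 times weekly (IL17Ab), or both agents (Combo). The labels call every library C57BL/6J, give an age of about 12 to 14 weeks and mice of both sexes with groups matched for sex, and speak of 3 mice per group. They do not name a library's recipient genotype, which comes from the treatment protocol. By the recipient age at transplantation in the study's methods, mice treated for 30 days from 8 weeks later were older than 14 weeks at sampling. The libraries hold mutant and competitor cells together. For the ATM libraries of WT recipients the study also speaks of WT donor cells, and there a difference in donor and a difference in recipient cannot be told apart.

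Acute-phase genes encode proteins whose production changes within hours of infection or injury, mostly in the liver under IL-6, IL-1 and TNF, but also in myeloid and fat tissue cells. *Saa3* encodes a serum amyloid A made mainly outside the liver, for instance by macrophages and adipocytes. *Ptx3* encodes the long pentraxin of innate defense, *Lcn2* lipocalin 2, which withholds iron from bacteria by binding their siderophores, and *Hp* haptoglobin, which captures free hemoglobin. *Orm1* encodes orosomucoid, a carrier of small lipophilic molecules, *Cp* ceruloplasmin, the copper oxidase that loads iron onto transferrin, and *Steap4* a metalloreductase of iron and copper. IL-17A acts with TNF on many cell types to raise *Lcn2*, *Saa3* and *Il6*, and lipocalin 2 and haptoglobin are also stored in the granules of maturing neutrophils.

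Counts on genes totaled 31086184 to 39925495 per BM library and 24876074 to 45300263 per ATM library. Replicates of a group varied more in ATMs (biological coefficient of variation 32.5%) than in BM (3.51%). In BM, WT replicate 1 stood apart from the other WT libraries (chi-square per gene of 34.8 and 26.7, against 2.02 to 4.21 for all other BM pairs and 11.7 to 26.8 for ATM pairs, where 1 is counting noise), and fold changes of the 7 genes against WT are also given without it. BM replicates thus lay close to counting noise. In both tissues, whether a library is 1 mouse or a pool is not stated library by library. Standard errors and p-values of BM and ATMs therefore measure only the spread between these libraries. *Xist*, transcribed from the inactive X of female cells, averaged 6544 normalized counts in BM of Vehicle and 3610 in Combo against at most 98.4 in the other groups, and 1250 and 1129 in ATMs against at most 16.3. *Xist* thus ran high in the same groups, Vehicle and Combo, as several of the 7 genes did, and sex of the cells and group cannot be told apart. *Adgre1*, which encodes the F4/80 antigen used for the sort, ranged from 1002 to 1738 normalized counts in the Vehicle ATM libraries and from 6387 to 29674 in those of the other groups. The 12 tested of 13 markers of maturing neutrophils summed to 22100 to 23410 CPM (counts scaled to the library total) in Vehicle ATMs and 13430 to 13710 in Combo, but to 501 to 519 in WT, 275 to 296 in GLP1 and 508 to 524 in IL17Ab, with none of them at 0 in a whole group. The 9 adipocyte markers summed to 4133 to 4412 CPM in Vehicle ATMs against 1224 to 1387 elsewhere. By gene, though, 3 were called higher and 4 lower in Vehicle vs WT (all genes 12.5% and 22.9%). Transcripts of epididymis (8 of 15 markers, 3196 to 3353 CPM in WT against at most 182) and of pancreatic acinar cells (11 of 12 markers, 1331 to 1336 CPM in Combo against at most 27.8) were unevenly spread over the ATM groups. In such bulk samples, fewer cells of a type and less RNA per cell cannot be told apart.

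*Saa3* was the member with the widest range. All values below are counts scaled to the mean effective library size of the tissue (normalized counts) unless another scale is named. Whether ranges of libraries overlap is given as a description, without the share of all genes for which the same holds. In BM the WT libraries held 25.1, 14.9 and 23.7 normalized counts of *Saa3*, and the Vehicle libraries 70778, 73811 and 75149. The GLP1 libraries held 46.9, 45.6 and 63.4, the IL17Ab libraries 28.4, 26.1 and 32.6, and the Combo libraries 207, 190 and 213. Vehicle therefore stood far above all other groups, Combo came next, and no library of any group reached into the range of its neighbor in the order Vehicle, Combo, GLP1, IL17Ab, WT. The last step was narrow, from 26.1 in the lowest IL17Ab library to 25.1 in the highest WT library. Before scaling, the counts of IL17Ab (28, 29 and 36) and WT (29, 15 and 22) overlapped, and IL17Ab was not tested against WT. The log2 fold change of Vehicle vs WT was 11.74 (standard error 0.0586, 3412-fold), and 11.89 without WT replicate 1. Against Vehicle, *Saa3* was lower by 1419-fold in GLP1, 2510-fold in IL17Ab and 360-fold in Combo. What remained in Combo was 0.277% ± 0.0165 of the Vehicle mean (SD, n = 3), compared with 0.0709% ± 0.0135 in GLP1 and 0.0397% ± 0.00455 in IL17Ab.

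In ATMs the order of *Saa3* was the same while the distances were not. WT libraries held 187, 224 and 208 normalized counts of *Saa3*, and Vehicle libraries 118319, 105108 and 114249. The GLP1 libraries held 2685, 2356 and 2562, the IL17Ab libraries 1931, 1762 and 1902, and the Combo libraries 26825, 27092 and 25410. Each group was separated from the next without overlap, and Combo lay nearer to Vehicle than to the single agents on a log scale. *Saa3* rose 544-fold in Vehicle vs WT (log2 fold change 9.09, standard error 0.0856, adjusted p = 4.76e-19, edgeR). It was reduced 44.4-fold in GLP1 (adjusted p = 1.13e-17, edgeR), 60.4-fold in IL17Ab (adjusted p = 5.52e-18, edgeR) and 4.26-fold in Combo (adjusted p = 1.42e-13, edgeR), 3 comparisons that share the Vehicle libraries. In Combo 23.5% ± 0.803 of the Vehicle mean remained (SD, n = 3), against 2.25% ± 0.148 in GLP1 and 1.66% ± 0.0803 in IL17Ab. Neutrophil markers, of which 59.3% ± 0.597 remained in Combo, 1.24% ± 0.0507 in GLP1 and 2.27% ± 0.0402 in IL17Ab, were likewise highest in Combo among the treated ATM groups but had GLP1 below IL17Ab, and their part in the result was not tested. In BM the same markers stood at 113% ± 0.649 of Vehicle in Combo and 66.4% ± 0.301 in GLP1 (SD, n = 3), while *Saa3* was below 1% of Vehicle in both.

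*Saa3* lies on the minus strand of chromosome 7 (GRCm38, 46711998 to 46715700), beside other serum amyloid A genes. Its upstream region is shown because *Saa3* moved most, with matches to short motifs bound by C/EBP proteins (TT, any 2 bases, G, any base, AA), NF-kB (GGG and CC separated by 5 bases) and STAT proteins (TTC and GAA separated by 3 bases), searched on both strands, in capitals. The RefSeq window at chr7:46715701-46715926 (GRCm38.p6, minus strand, 226 bases outside exons) reads:
*Saa3*: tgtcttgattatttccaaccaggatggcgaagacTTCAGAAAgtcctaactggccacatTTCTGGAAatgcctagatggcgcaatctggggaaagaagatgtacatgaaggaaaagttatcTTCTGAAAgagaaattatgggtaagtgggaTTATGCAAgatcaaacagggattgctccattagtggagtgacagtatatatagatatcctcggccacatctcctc
It holds 4 C/EBP matches, TTCAGAAA, TTCTGGAA, TTCTGAAA and TTATGCAA, and no match to the other motifs. Of 32851 mouse windows of 250 upstream bases, 36.8% hold a C/EBP match, 45.8% an NF-kB match and 7.0% a STAT match, so a match is common and describes letters, not a bound site. Windows were found for 5 of the 7 genes.

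**Figure D1:**
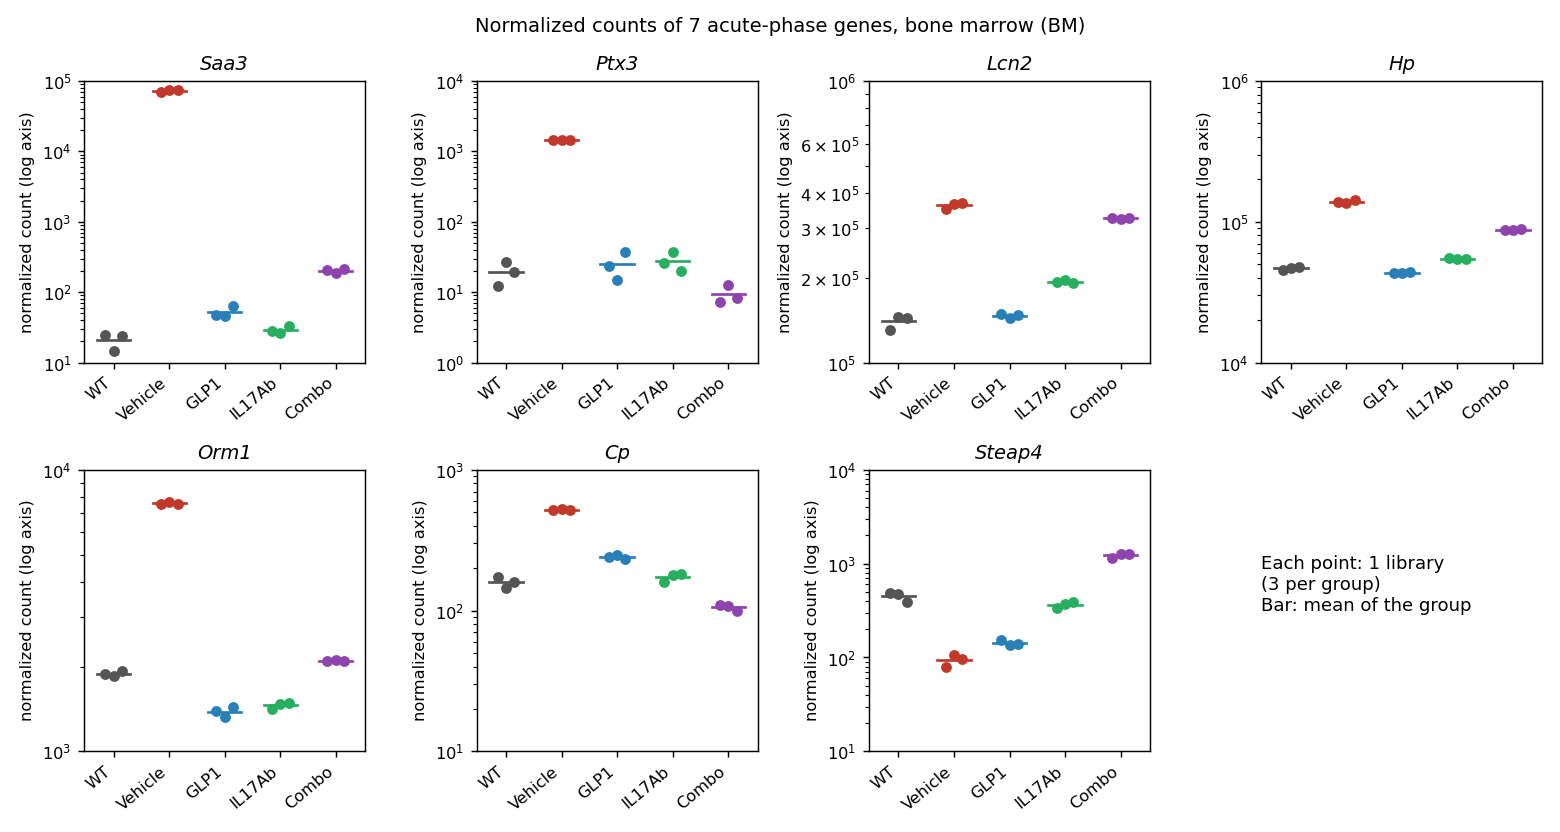
Normalized counts (log axis) of the 7 genes in BM, with 1 point per library, 3 per group, and a bar at the group mean. The Vehicle libraries are highest for *Saa3*, *Ptx3*, *Lcn2*, *Hp*, *Orm1* and *Cp* and lowest for *Steap4*, where Combo, at 1139 to 1278, is highest.

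*Ptx3* followed *Saa3* upward in Vehicle but not in Combo. In BM its libraries held 12.1, 26.8 and 19.4 normalized counts in WT and 1469, 1431 and 1464 in Vehicle. The treated groups were near the WT level, with 23.4, 14.9 and 36.8 in GLP1, 26.4, 36.9 and 19.95 in IL17Ab and 7.20, 12.7 and 8.35 in Combo. Vehicle alone stood apart in BM, and the range of WT overlapped with that of each treated group. The log2 fold change of Vehicle vs WT was 6.24 (standard error 0.16, 75.6-fold), and 5.96 without WT replicate 1. Compared with single agents in BM, *Ptx3* was lower in Combo, by 2.59-fold vs GLP1 (adjusted p = 0.00113, edgeR) and 2.93-fold vs IL17Ab (adjusted p = 0.000359, edgeR), at under 40 normalized counts in each of these libraries. The decrease of Combo vs WT (log2 fold change -1.01, standard error 0.387) was no longer called without WT replicate 2, Combo replicate 1 or Combo replicate 3.

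In ATMs the Vehicle libraries held 151033, 146248 and 147527 normalized counts of *Ptx3*. WT libraries held 3166, 2780 and 2687, GLP1 libraries 8713, 9253 and 8765, IL17Ab libraries 1288, 1528 and 1587, and Combo libraries 1861, 2118 and 1721. No ATM group overlapped with another, and IL17Ab and Combo were below WT. *Ptx3* rose 51.5-fold in Vehicle vs WT (log2 fold change 5.69, standard error 0.0956, adjusted p = 1.63e-16, edgeR) and fell 78.0-fold in Combo vs Vehicle (adjusted p = 1.45e-16, edgeR). The decrease vs Vehicle was 101-fold in IL17Ab (adjusted p = 4.35e-17, edgeR) and 16.6-fold in GLP1 (adjusted p = 3.85e-15, edgeR). Combo fell below GLP1 by 2.23 on the log2 scale (standard error 0.083, adjusted p = 9.26e-12, edgeR) and differed from IL17Ab by less than the fold-change limit (0.37, standard error 0.0815). With 1.28% of the Vehicle level left in Combo, *Ptx3* thus had Combo below GLP1 in ATMs, where *Saa3* had Combo above it.

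*Ptx3* lies on the plus strand of chromosome 3 (GRCm38, 66219910 to 66225805). Its upstream window (RefSeq, GRCm38.p6, chr3:66219637-66219886, 250 bases) is shown as the second gene with a large rise in both tissues, again with motif matches in capitals:
*Ptx3*: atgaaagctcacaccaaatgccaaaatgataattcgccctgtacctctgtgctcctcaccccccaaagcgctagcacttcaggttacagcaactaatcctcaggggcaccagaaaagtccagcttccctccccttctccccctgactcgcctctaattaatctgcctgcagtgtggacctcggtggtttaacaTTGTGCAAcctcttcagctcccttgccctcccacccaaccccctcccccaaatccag
It holds 1 C/EBP match, TTGTGCAA, the same kind of match that occurs 4 times upstream of *Saa3*, and none for NF-kB or STAT by these letters.

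**Figure D2:**
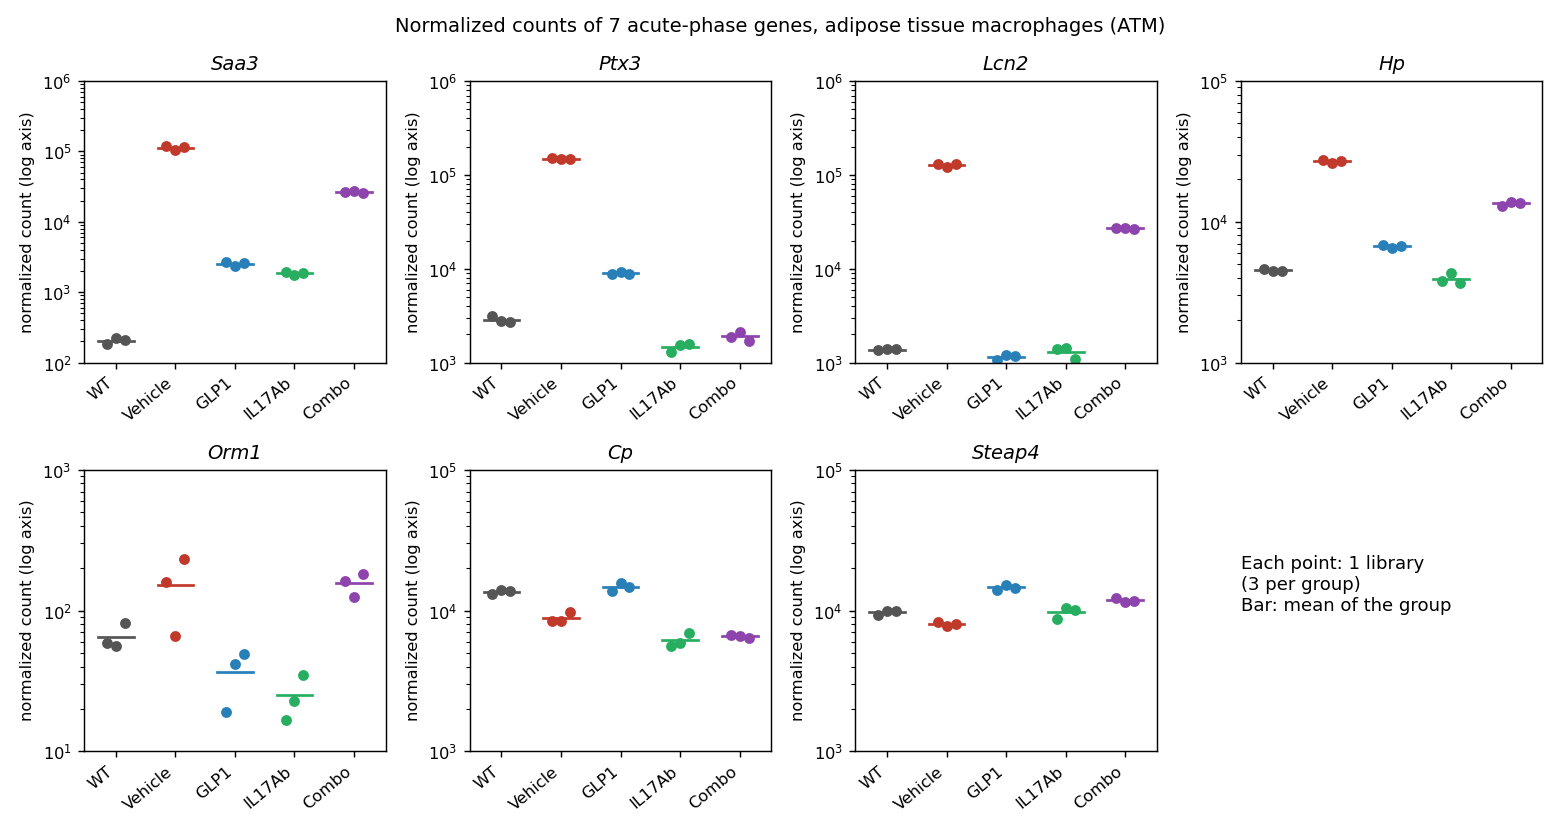
Normalized counts (log axis) of the 7 genes in ATMs, with 1 point per library, 3 per group, and a bar at the group mean. Combo is second to Vehicle for *Saa3*, *Lcn2* and *Hp* but near WT for *Ptx3*, and the *Orm1* points of Vehicle spread from 66.0 to 233.

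The genes of granule and plasma proteins, *Lcn2*, *Hp* and *Orm1*, differed less between Vehicle and WT in BM than *Saa3* did, and were well expressed in BM of every group. In BM *Lcn2* had 130721, 145774 and 143610 normalized counts in WT and 351222, 365580 and 369059 in Vehicle. It had 148569, 144423 and 147542 in GLP1, 194050, 197018 and 191117 in IL17Ab, and 327213, 322857 and 327550 in Combo. Combo was below Vehicle without overlap yet close to it, whereas GLP1 overlapped with WT. The log2 fold change of Vehicle vs WT was 1.37 (standard error 0.029), 1.32 without WT replicate 1, and that of Combo vs Vehicle -0.15 (standard error 0.0284). *Lcn2* was higher in Combo than in GLP1 by 1.15 on the log2 scale (standard error 0.0288, adjusted p = 2.53e-22, edgeR), and by 0.75 (standard error 0.0286), within the fold-change limit, than in IL17Ab. The neutrophil markers of BM had the same highest and lowest groups among the treated ones by their sum (113% of Vehicle in Combo, 66.4% in GLP1). By gene, 8 of 12 were called higher and 0 lower in Combo vs Vehicle (all genes 6.58% and 11.1%). In GLP1 vs Vehicle 1 marker was higher and 0 lower (all genes 7.6% and 9.08%), with a median log2 fold change of the markers of -0.12. Their part was not tested.

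In ATMs *Lcn2* had 1348, 1381 and 1400 normalized counts in WT and 130871, 122628 and 131457 in Vehicle. GLP1 had 1068, 1198 and 1167, IL17Ab 1383, 1417 and 1097, and Combo 27160, 27460 and 26279. WT overlapped with IL17Ab and IL17Ab with GLP1, while Combo and Vehicle stood alone. *Lcn2* rose 93.2-fold in Vehicle vs WT (log2 fold change 6.54, standard error 0.0886, adjusted p = 1.98e-17, edgeR). It fell 112-fold in GLP1 (adjusted p = 1.3e-17, edgeR), 98.7-fold in IL17Ab (adjusted p = 1.16e-17, edgeR) and 4.76-fold in Combo (adjusted p = 4.96e-13, edgeR). Combo was thereby 23.6-fold above GLP1 (adjusted p = 1.67e-15, edgeR) and 19.6-fold above WT (adjusted p = 2.13e-15, edgeR). Neutrophil granule genes of the same libraries were *Ltf* (lactoferrin), at 66829 to 70772 normalized counts in Vehicle and 75736 to 76114 in Combo, and *Ngp*, at 84888 to 85263 and 91502 to 93395. In Combo vs Vehicle *Ltf* and *Ngp* had log2 fold changes of 0.14 and 0.12, neither past the test, beside the decrease of *Lcn2*. Other listed neutrophil markers had -1.96 (*Cxcr2*), -1.39 (*S100a8*), -1.22 (*S100a9*) and 1.76 (*Cd177*) there, and the summed markers were at 59.3% of Vehicle. The part of neutrophil RNA in the *Lcn2* values was not tested.

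*Hp* also had Vehicle highest and Combo next in both tissues, as *Lcn2* did, with smaller steps in ATMs. BM libraries held 45148, 47249 and 47827 normalized counts in WT and 138562, 136323 and 142415 in Vehicle. They held 43292, 43235 and 43893 in GLP1, 55011, 54880 and 54125 in IL17Ab, and 87377, 87614 and 88605 in Combo. All BM groups were apart, GLP1 being below WT. The log2 fold change was 1.57 for Vehicle vs WT (standard error 0.0227), 1.55 without WT replicate 1, and -0.66 for Combo vs Vehicle (standard error 0.0223). Combo was above GLP1 by 1.02 on the log2 scale (standard error 0.0225, adjusted p = 7.08e-33, edgeR).

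In ATMs *Hp* libraries held 4639, 4489 and 4494 normalized counts in WT, 27609, 26249 and 27000 in Vehicle, 6819, 6503 and 6770 in GLP1, 3823, 4329 and 3678 in IL17Ab, and 12963, 13940 and 13630 in Combo. The 5 groups did not overlap. *Hp* rose 5.94-fold in Vehicle vs WT (adjusted p = 3.93e-15, edgeR), fell 4.02-fold in GLP1 (adjusted p = 6.95e-14, edgeR) and fell 6.84-fold in IL17Ab (adjusted p = 1.73e-15, edgeR). Combo vs Vehicle, at -0.996 on the log2 scale (standard error 0.054, adjusted p = 3.2e-10, edgeR), missed the fold-change limit narrowly, and -1.01 with the size factors of DESeq2 was past it. The rise of Combo vs GLP1 (1.01, standard error 0.0542, adjusted p = 6.19e-10, edgeR) was as near to the limit and was lost without GLP1 replicate 2 or Combo replicate 2 (0.99 each). Combo rose over IL17Ab by 1.78 (standard error 0.0553, adjusted p = 2.14e-12, edgeR).

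*Orm1* was a BM transcript more than an ATM transcript. In BM it had 1875, 1846 and 1927 normalized counts in WT, 7564, 7659 and 7567 in Vehicle, 1390, 1320 and 1439 in GLP1, 1418, 1476 and 1482 in IL17Ab, and 2099, 2114 and 2093 in Combo. Every treated group was far below Vehicle, the single agents overlapped with each other below WT, and Combo was slightly above WT. The log2 fold changes were 2.01 for Vehicle vs WT (standard error 0.0352, 2.01 without WT replicate 1) and -1.85 for Combo vs Vehicle (standard error 0.035).

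In ATMs *Orm1* libraries held 58.4, 55.8 and 81.7 normalized counts in WT, 159, 66.0 and 233 in Vehicle, 18.9, 42.0 and 48.9 in GLP1, 16.8, 23.0 and 35.1 in IL17Ab, and 162, 125 and 183 in Combo. Vehicle replicate 2 lay within the WT range, and Vehicle overlapped with Combo and WT. Vehicle vs WT did not pass (log2 fold change 1.23, standard error 0.533, adjusted p = 0.0615, edgeR), but gave 1.59 with an adjusted p of 0.0157 (edgeR) without Vehicle replicate 2. Combo vs Vehicle was 0.03 (standard error 0.522, adjusted p = 1, edgeR). *Orm1* fell 4.17-fold in GLP1 (adjusted p = 0.00502, edgeR) and 6.10-fold in IL17Ab (adjusted p = 0.000912, edgeR), and was 4.26-fold higher in Combo than in GLP1 (adjusted p = 0.00633, edgeR). Close copies of *Orm1* exist in the mouse genome, so how reads were split between them is uncertain.

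*Cp* and *Steap4*, the genes of metal oxidation and reduction, did not follow the others in ATMs, and *Steap4* went the opposite way in BM. BM libraries held 172, 144 and 160 normalized counts of *Cp* in WT, 514, 529 and 521 in Vehicle, 239, 246 and 234 in GLP1, 160, 178 and 180 in IL17Ab, and 110, 107 and 99.1 in Combo. Vehicle was highest and Combo lowest, below WT, with overlap only between IL17Ab and WT. The log2 fold changes of *Cp* in BM were 1.71 for Vehicle vs WT (standard error 0.0982, 1.78 without WT replicate 1) and -2.31 for Combo vs Vehicle (standard error 0.106), and Combo was lower than GLP1 by 2.28-fold (adjusted p = 3.54e-12, edgeR).

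In ATMs *Cp* libraries held 13065, 13887 and 13661 normalized counts in WT, 8487, 8410 and 9691 in Vehicle, 13690, 15684 and 14631 in GLP1, 5639, 5891 and 6893 in IL17Ab, and 6671, 6641 and 6415 in Combo. GLP1 and WT were high and overlapped, IL17Ab and Combo were low and overlapped, and Vehicle lay between. None of the comparisons with Vehicle reached the fold-change limit (log2 fold changes of -0.61 for Vehicle vs WT, 0.73 for GLP1, -0.53 for IL17Ab and -0.43 for Combo). *Cp* fell in Combo vs GLP1 by 1.16 on the log2 scale (standard error 0.075, adjusted p = 5.98e-09, edgeR) and in Combo vs WT by 1.04 (standard error 0.0748, adjusted p = 1.69e-08, edgeR), the latter at -0.999 and under the limit with only the libraries compared in the fit.

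*Steap4* had 486, 471 and 393 normalized counts in WT BM and 78.2, 105 and 96.0 in Vehicle. GLP1 had 155, 136 and 140.0, IL17Ab 334, 373 and 388, and Combo 1139, 1268 and 1278. Vehicle was thus the lowest group and Combo the highest, and no groups overlapped. The log2 fold changes were -2.27 for Vehicle vs WT (standard error 0.113), -2.21 without WT replicate 1, and 3.72 for Combo vs Vehicle (standard error 0.103, 13.2-fold). *Steap4* rose in Combo 8.55-fold over GLP1 (adjusted p = 1.78e-28, edgeR) and 3.36-fold over IL17Ab (adjusted p = 2.53e-21, edgeR), and stood 2.72-fold above WT.

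In ATMs *Steap4* libraries held 9357, 9877 and 9975 normalized counts in WT, 8345, 7748 and 8017 in Vehicle, 14049, 15170 and 14548 in GLP1, 8689, 10356 and 10165 in IL17Ab, and 12306, 11466 and 11707 in Combo. Vehicle was the lowest group there too, but the range over the 15 libraries was narrow, and none of the log2 fold changes against Vehicle passed 1 (0.86 in GLP1, 0.28 in IL17Ab, 0.56 in Combo). *Steap4* lies on the plus strand of chromosome 5 (GRCm38, 7960457 to 7982213). Its upstream window (RefSeq, GRCm38.p6, chr5:7960222-7960456, 235 bases outside exons) is shown for contrast with those of *Saa3* and *Ptx3*, since *Steap4* moved the other way in BM:
*Steap4*: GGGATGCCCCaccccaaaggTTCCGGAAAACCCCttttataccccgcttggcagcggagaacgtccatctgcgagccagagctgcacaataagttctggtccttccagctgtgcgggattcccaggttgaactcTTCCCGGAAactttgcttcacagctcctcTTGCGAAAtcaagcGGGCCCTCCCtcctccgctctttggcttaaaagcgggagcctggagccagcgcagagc
It holds 3 NF-kB matches (GGGATGCCCC, GGAAAACCCC and GGGCCCTCCC, the middle one found on the minus strand and overlapping a C/EBP match), 2 C/EBP matches (TTCCGGAA and TTGCGAAA) and 1 STAT match (TTCCCGGAA). The window of *Steap4* thus held more matches than those of *Saa3* and *Ptx3*. NF-kB matches also occurred for *Lcn2* and *Cp*, which rose in BM, in windows that lie partly within exons. *Hp* and *Orm1* had no window.

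**Figure D3:**
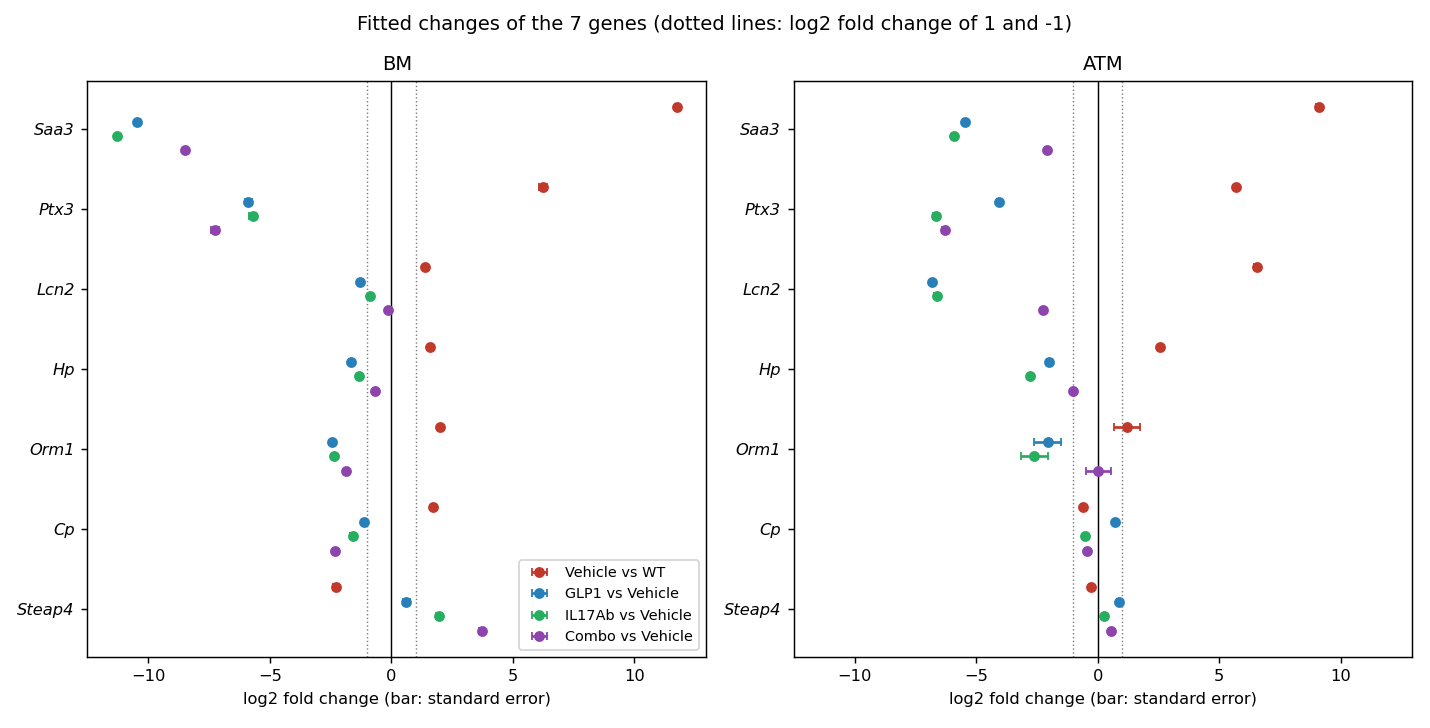
Log2 fold changes of the 7 genes in BM and ATMs from the edgeR fit, with bars of 1 standard error and dotted lines at the fold-change limit of 1 and -1. *Saa3* and *Ptx3* lie farthest from 0 in BM (11.74 and 6.24 in Vehicle vs WT), and in ATMs *Lcn2* (6.54) joins them.

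Per length of exon, the ranking of the 7 genes differed between tissues. In Vehicle BM, *Lcn2* had 3963 RPKM (reads scaled to exon length and effective library size), *Hp* 2487, *Saa3* 807 and *Orm1* 282, against 15.6 for *Ptx3*, 1.57 for *Cp* and 0.848 for *Steap4*. In Vehicle ATMs, *Ptx3* had 1666 RPKM, *Lcn2* 1474, *Saa3* 1302 and *Hp* 506, against 76.8 for *Steap4*, 27.9 for *Cp* and 5.94 for *Orm1*. In WT ATMs the RPKM ranking was another again, with *Steap4* the highest at 93.0 and *Saa3* the lowest at 2.39. *Lcn2* was the highest member in BM of every group, 1533 RPKM in WT included.

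Counted over the 7 genes with a call at a false discovery rate below 0.05 and an absolute log2 fold change above 1, Vehicle vs WT in BM had 6 higher and 1 lower, where 9.44% of all genes tested were called higher and 10% lower. Nothing is read from that count, since this contrast was in view when the genes were picked. In GLP1 vs Vehicle in BM, 0 were higher and 6 lower (7.6% and 9.08% of all genes), *Steap4* being the exception. For IL17Ab vs Vehicle the count was 1 higher (*Steap4*) and 5 lower (7.65% and 8.46%), with *Lcn2* at -0.90 under the fold-change limit. For Combo vs Vehicle it was 1 higher (*Steap4*) and 4 lower (*Saa3*, *Ptx3*, *Orm1* and *Cp*), with 6.58% and 11.1% of all genes called. *Lcn2* and *Hp*, not called there, kept 90.0% and 63.2% of the Vehicle mean in Combo. These 3 comparisons share the Vehicle libraries of the contrast that guided the choice.

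BM comparisons without Vehicle placed Combo above the single agents for several genes. In Combo vs GLP1, 4 genes were higher (*Saa3*, *Lcn2*, *Hp* and *Steap4*) and 2 lower (*Ptx3* and *Cp*), where 4.59% of all genes were called higher and 8.57% lower. In Combo vs IL17Ab, 2 were higher (*Saa3* and *Steap4*) and 1 lower (*Ptx3*), against 1.04% and 4.63% of all genes. *Saa3* rose in Combo by 1.98 on the log2 scale over GLP1 (standard error 0.101, adjusted p = 6.84e-19, edgeR) and by 2.80 over IL17Ab (standard error 0.115, adjusted p = 4.51e-21, edgeR), with all 3 Combo libraries above all single-agent libraries. In Combo vs WT, *Saa3* (9.47-fold), *Lcn2* (2.33-fold) and *Steap4* were higher and *Ptx3* lower, where 4.4% and 9.93% of all genes were called. That comparison shares the WT libraries of the contrast that guided the choice and is a description. Without WT replicate 1 the same 4 genes were called, *Saa3* at 10.6-fold, *Lcn2* at 2.25-fold, *Steap4* at 2.84-fold and *Ptx3* at -1.29 on the log2 scale. Without the fold-change limit all 7 genes passed in Combo vs WT and in Combo vs IL17Ab, as did 73.3% and 52.5% of all genes of BM.

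In ATMs, Vehicle vs WT had 4 of the 7 genes higher (*Saa3*, *Lcn2*, *Hp* and *Ptx3*) and 0 lower, where 12.5% of all genes were called higher and 22.9% lower and the median gene stood at -0.21. GLP1 vs Vehicle had 0 higher and 5 lower, those 4 and *Orm1* (20.8% and 10.9% of all genes, median 0.19), and IL17Ab vs Vehicle had 0 higher and the same 5 lower (22.4% and 13.1%, median 0.17). Combo vs Vehicle had 0 higher and 3 lower, *Saa3*, *Lcn2* and *Ptx3*, with 14.1% and 12.2% of all genes called. With the fold-change limit removed, 6 of the 7 genes passed there, as did 48.7% of all genes. Combo vs WT had 3 higher (*Saa3*, 128-fold, with *Lcn2* and *Hp*) and 1 lower (*Cp*), against 7.08% and 14.5% of all genes. In Combo vs GLP1, 4 were higher (*Saa3*, *Lcn2*, *Hp* and *Orm1*) and 2 lower (*Ptx3* and *Cp*), against 5.38% and 13.4%, and in Combo vs IL17Ab the same 4 were higher and 0 lower, against 3.73% and 10.5%.

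**Figure D4:**
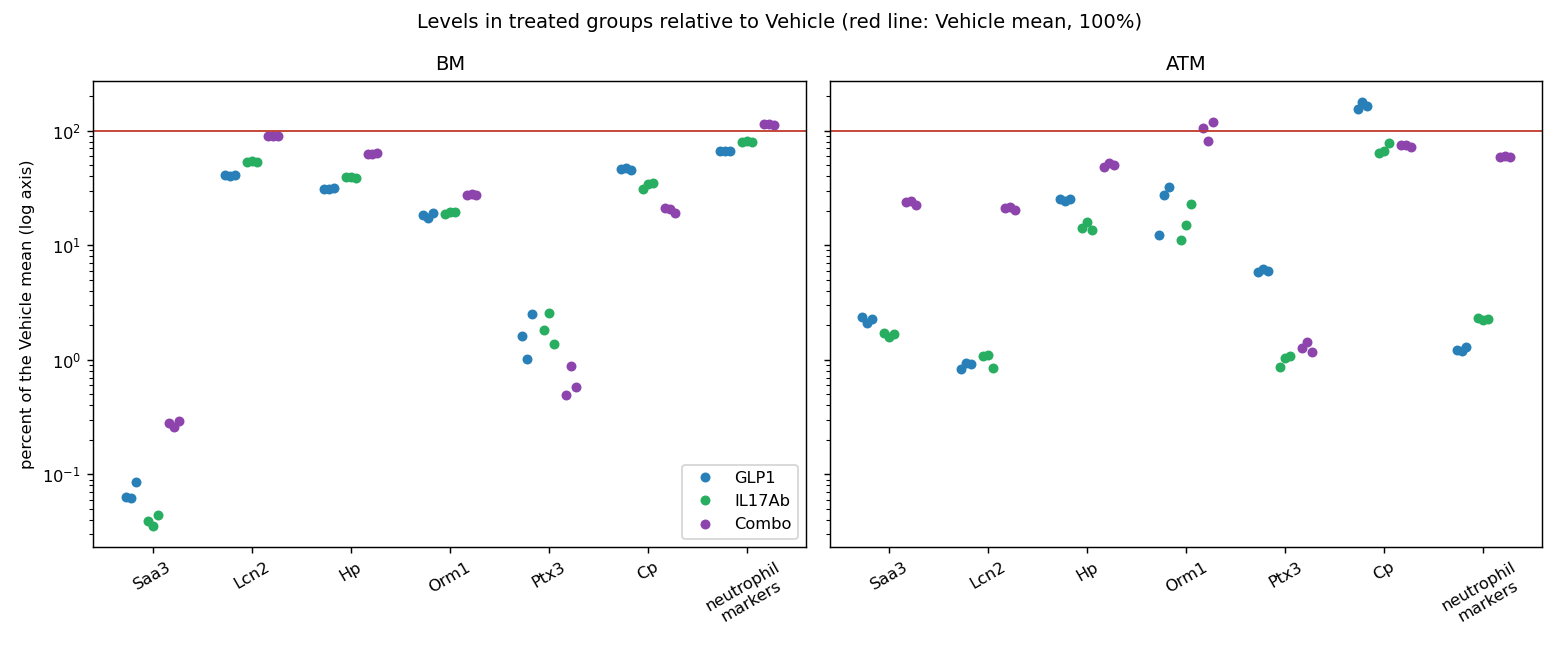
Level of 6 of the genes and of the summed maturing neutrophil markers in each treated library, as a percent of the Vehicle mean of the tissue (log axis, red line at 100%), with 3 libraries per group. *Saa3* is below 0.3% of Vehicle in BM of all treated groups but at 23.5% in Combo ATMs, where the markers are at 59.3%. *Steap4*, at 1318% of Vehicle in Combo BM, is left out of the plot for its scale.

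Whether the effects of both agents added up was read from the fit as a departure, the log2 level in Combo minus that given by summing the log2 effects of GLP1 and IL17Ab, which is 0 where they add. In BM 6 of the 7 genes departed upward and 0 downward, where 9.59% and 11.5% of all genes did. The departure was 13.27 for *Saa3*, 4.33 for *Ptx3*, 2.99 for *Orm1*, 2.36 for *Hp*, 2.05 for *Lcn2* and 1.13 for *Steap4*, while *Cp*, at 0.40, was under the limit. In ATMs 5 departed upward and 0 downward, against 12.9% and 23% of all genes, namely *Lcn2* by 11.19 (standard error 0.12, adjusted p = 1.26e-18, edgeR), *Saa3* by 9.30 (standard error 0.096, adjusted p = 9.2e-19, edgeR), *Orm1* by 4.70 (adjusted p = 0.000113, edgeR), *Ptx3* by 4.43 (adjusted p = 4.79e-14, edgeR) and *Hp* by 3.79 (adjusted p = 2.64e-15, edgeR). Where each agent alone had lowered a gene to near the WT level, the summed effects lie below that level, so an upward departure can go with a low level in Combo, as it did for *Ptx3*. In ATMs *Lcn2* stood at 0.892% of Vehicle in GLP1 and 1.01% in IL17Ab, against 1.07% in WT. *Lcn2*, *Hp* and *Orm1* in both tissues and *Ptx3* in ATMs were near or below WT with an agent alone. Nothing is read from the departures of these genes, nor from the counts of genes departing. In BM the summed effects of *Saa3* and *Ptx3* lie too low to be counted, so nothing is read from those departures either.

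The change from Vehicle to Combo differed between the tissues for each of the 7 genes in a fit of both tissues at a false discovery rate alone, at which 55.1% of 13076 genes differed. *Saa3* fell 6.44 log2 units less in ATMs than in BM, and *Lcn2* fell 2.06 units more in ATMs.

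The cytokines that drive acute-phase genes were measured in the same libraries. IL-17A, IL-6, IL-1 and TNF act through their receptors on NF-kB, STAT3 and C/EBP factors. In BM *Il17a* was counted in the 3 Vehicle libraries (20.4, 22.6 and 33.6 normalized counts) and in 1 other library, IL17Ab replicate 1 (1.02). The other 11 BM libraries had 0 counts, which allows up to 3 counts each. *Il6* averaged 323 ± 20.4 normalized counts in Vehicle BM (SD, n = 3) and between 20.2 and 67.7 in the other groups, whereas *Il1b* was lowest in Vehicle, at 564, and highest in WT, at 5077. *Tnf* in BM ranged from 745 in WT to 1578 in Vehicle, with the treated groups between 1050 and 1165. In Combo BM, where *Saa3* was above WT, *Il6* averaged 20.2 normalized counts against 34.7 in WT.

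In ATMs *Il17a* libraries held 212, 172 and 278 normalized counts in Vehicle, 117, 84.0 and 69.2 in Combo, 29.8, 47.3 and 22.9 in WT, 36.5, 33.7 and 27.2 in IL17Ab, and 6.97, 17.6 and 0.873 in GLP1. It rose in Vehicle vs WT (log2 fold change 2.72, standard error 0.677, adjusted p = 0.00297, edgeR), while Combo vs Vehicle did not pass (-1.29, standard error 0.64, adjusted p = 0.112, edgeR). *Il1b* averaged 16812 in Vehicle, 11591 in Combo and 2621 to 3462 in the other groups, an order of groups like that of *Lcn2* in which Vehicle and Combo are high. *Il6* and *Tnf* instead had Combo low, *Il6* at 1121 normalized counts against 18427 in Vehicle and 7613 in WT, and *Tnf* at 2694 against 20553 and 1729. *Il6* fell in Combo vs Vehicle by 4.04 on the log2 scale (standard error 0.0873, adjusted p = 4.67e-15, edgeR) and *Tnf* by 2.93 (standard error 0.102, adjusted p = 1.3e-12, edgeR), the direction of *Ptx3*.

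**Figure D5:**
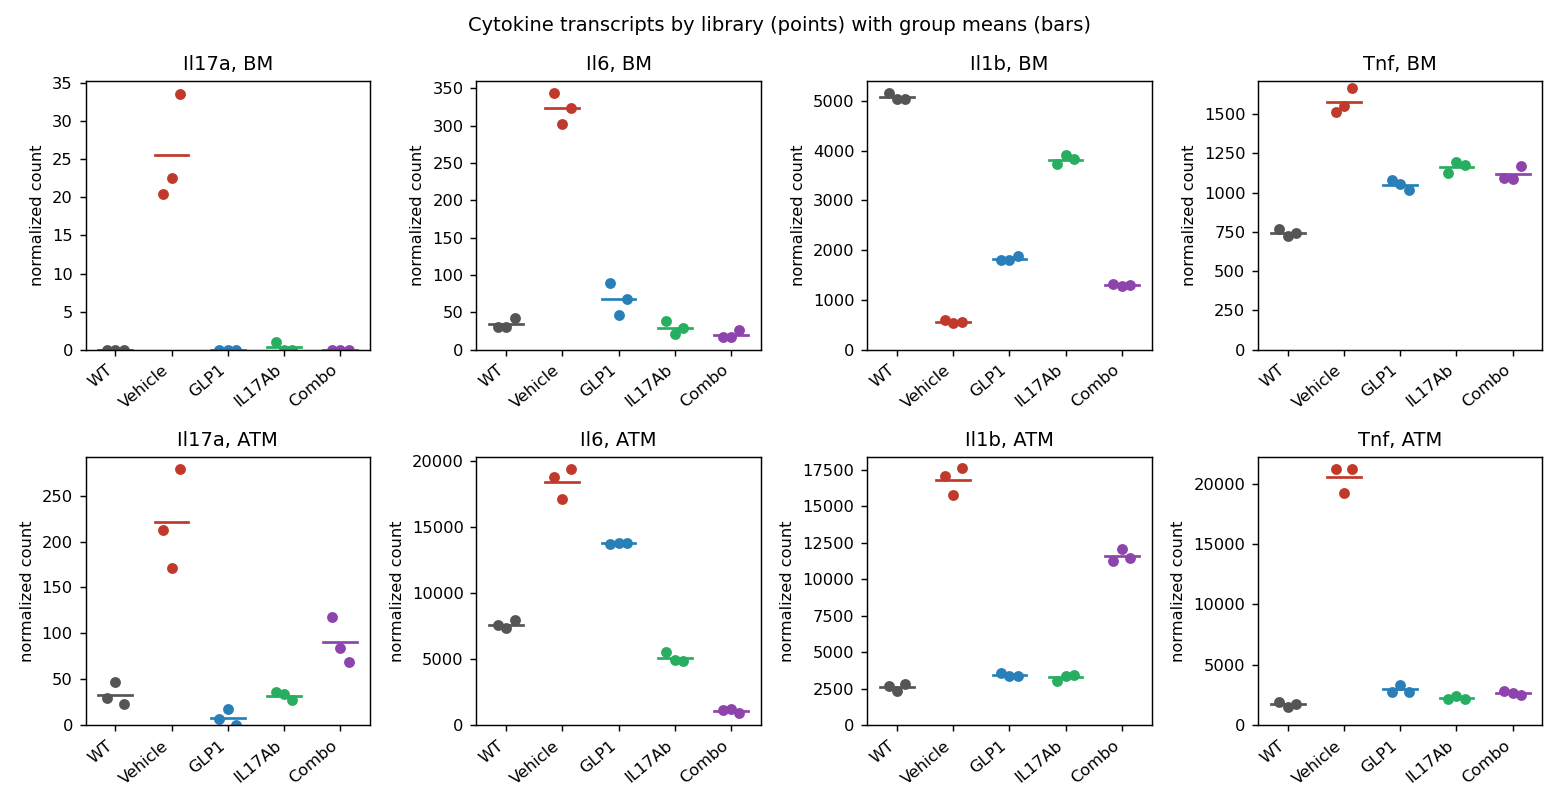
Normalized counts of *Il17a*, *Il6*, *Il1b* and *Tnf* by library (points) with group means (bars) in BM (top) and ATMs (bottom), on linear axes from 0. In ATMs *Il1b* stays high in Combo (mean 11591) while *Il6* (1121) and *Tnf* (2694) are low.

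Among the 12 inducing cytokines listed with these (10 tested in BM), Vehicle vs WT had 8 higher and 1 lower in BM, where the lower one was *Il1b* (log2 fold change -3.17), and 10 higher and 0 lower of 12 in ATMs. The median log2 fold change of the list was 2.72 in BM and 2.35 in ATMs, against -0.02 and -0.21 for all genes. *Il22*, which induces acute-phase genes in epithelial cells and liver, was at 0 counts in all WT BM libraries and at 216 to 289 normalized counts in Vehicle, at least 89.7-fold higher, and *Lif*, of the IL-6 family, had a log2 fold change of 5.53. In ATMs the largest rises were those of *Tnf* (3.57), *Osm* (3.18), *Csf3* (3.02) and *Il17f* (2.75), and in Combo vs Vehicle 1 was higher and 7 lower, *Il6*, *Csf3* (-3.82), *Tnf* and *Lif* (-2.50) with the largest decreases. Combo vs Vehicle in BM had 1 higher, *Il1b* (1.20), and 7 lower of 10. Of all genes, Vehicle vs WT had 9.44% higher and 10% lower in BM, and 12.5% and 22.9% in ATMs. Combo vs Vehicle had 6.58% and 11.1% in BM, and 14.1% and 12.2% in ATMs.

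Other positive acute-phase genes were mostly higher in Vehicle than in WT. Of 17 tested in BM, 10 were higher and 1 lower in Vehicle vs WT (median log2 fold change 1.45), and 0 were higher and 7 lower in Combo vs Vehicle (median -0.85). Of all BM genes, 9.44% were called higher and 10% lower in Vehicle vs WT, and 6.58% and 11.1% in Combo vs Vehicle. *Cfb*, complement factor B, had 128 to 160 normalized counts in WT BM, 28646 to 29786 in Vehicle and 81.5 to 118 in Combo, with 7.72 as the log2 fold change of Vehicle vs WT (standard error 0.0758). *Serpina3f*, a serine protease inhibitor, had a log2 fold change of 4.35 in Vehicle vs WT and -5.19 in Combo vs Vehicle. *Serpina3f* held 95.7 to 120 normalized counts in Combo, below its WT range of 183.5 to 197. *Cd14*, the coreceptor for lipopolysaccharide, had 3.93 in Vehicle vs WT.

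Of 29 tested in ATMs, 18 were higher and 5 lower in Vehicle vs WT (median 2.61), and 2 were higher and 17 lower in Combo vs Vehicle (median -2.11). GLP1 vs Vehicle had 6 higher and 12 lower (20.8% and 10.9% of all genes), and IL17Ab vs Vehicle 4 higher and 16 lower (22.4% and 13.1%). In Vehicle vs WT 12.5% of all ATM genes were called higher and 22.9% lower, and in Combo vs Vehicle 14.1% and 12.2%. *Saa1*, a serum amyloid A of the liver, was at 0 counts in all WT ATM libraries and at 338, 204 and 349 normalized counts in Vehicle, at least 89.1-fold higher (adjusted p = 7.15e-08, edgeR), and *Saa2* was at least 24-fold higher. *Saa1* and *Saa2* are nearly identical in sequence, so the split between them is uncertain. *Crp*, C-reactive protein, rose by 6.31 on the log2 scale in Vehicle vs WT (standard error 1.38, adjusted p = 0.00114, edgeR) and -5.54 in Combo vs Vehicle (adjusted p = 0.00252, edgeR). *Alb*, albumin, was at 93.5 to 172 normalized counts in Vehicle ATMs and at most 24.7 elsewhere. Of the 6 hepatocyte markers 3 were tested, with 1 called higher, *Alb* (log2 fold change 3.73), and 1 lower, *Cyp2e1* (-8.00), in Vehicle vs WT (median 3.12). Their summed level was 3.46 to 7.76 CPM in Vehicle and 24.6 to 28.9 in WT, a sum over genes that moved in opposite directions. The part of liver RNA in *Saa1*, *Saa2*, *Crp* and *Alb* was not tested. *Serpina3f* rose by 4.82 (standard error 0.17, adjusted p = 1.2e-12, edgeR) at 7227 to 7416 normalized counts in Vehicle.

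Negative acute-phase genes, which the liver makes less of in inflammation, were few. Of 3 tested in BM, 0 were higher and 2 lower in Vehicle vs WT (all genes 9.44% and 10%). Of 5 in ATMs, 2 were higher, *Ahsg* (log2 fold change 4.13) and *Alb* (3.73), and 2 lower (all genes 12.5% and 22.9%). *Trf*, transferrin, was among the lower ones in both, at -1.65 in BM and, on the same log2 scale, -4.21 in ATMs (standard error 0.0859, adjusted p = 1.63e-15, edgeR), and in Combo vs Vehicle in ATMs it was higher by 2.72 (adjusted p = 1.99e-13, edgeR).

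Of all genes in Vehicle vs WT, 9.44% were called higher and 10% lower in BM, and 12.5% and 22.9% in ATMs. In Combo vs Vehicle the shares were 6.58% and 11.1% in BM, and 14.1% and 12.2% in ATMs. Of the receptors and transducers of the inducing signals in BM, 2 of 17 were higher and 0 lower in Vehicle vs WT, *Il1rap* (1.04) and *Lifr* (1.01), and 0 of 17 were called in Combo vs Vehicle. In ATMs 3 of 18 were higher in Vehicle vs WT, *Tnfrsf1b* (1.68), *Tnfrsf1a* (1.33) and *Il17ra* (1.21, standard error 0.0892, adjusted p = 1.23e-08, edgeR), and in Combo vs Vehicle those 3 and *Il17rc* were the 4 that fell, *Il17ra* by 1.16 (standard error 0.089, adjusted p = 2.43e-08, edgeR). *Il17ra*, the receptor subunit shared by IL-17 cytokines, also fell in IL17Ab vs Vehicle by 1.60 (adjusted p = 4.37e-10, edgeR) but stood at -0.09 in GLP1 vs Vehicle (adjusted p = 0.434, edgeR).

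Among 14 transcription factors and feedback genes tested in each tissue, Vehicle vs WT had 5 higher and 1 lower in BM (all genes 9.44% and 10%). In ATMs it had 7 higher and 1 lower (all genes 12.5% and 22.9%). *Nfkbia*, the inhibitor that NF-kB itself induces, had a log2 fold change of 2.07 in BM and rose by 2.19 in ATMs (standard error 0.0374, adjusted p = 1.92e-16, edgeR), and in Combo vs Vehicle it stood at -1.62 in BM and fell by 1.95 in ATMs (adjusted p = 1e-15, edgeR). *Cebpb*, which encodes a C/EBP factor of acute-phase promoters, had 1.55 in BM and rose by 2.43 in ATMs (standard error 0.405, adjusted p = 0.000101, edgeR), whereas *Cebpd*, its partner, had a log2 fold change of -1.11 in BM in Vehicle vs WT and 1.35 in Combo vs Vehicle. *Cebpd* in BM thus had Vehicle lowest and Combo highest, as *Steap4* did. *Socs3*, the feedback inhibitor of IL-6 signaling, was higher in Vehicle vs WT in BM (1.26) and fell in ATMs by 1.41 (standard error 0.0405, adjusted p = 8.04e-14, edgeR).

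Of the receptors and partners of the acute-phase proteins, 3 were higher and 1 lower of 16 in BM (all genes 9.44% and 10%) and 3 higher and 7 lower of 17 in ATMs (all genes 12.5% and 22.9%) in Vehicle vs WT. *Fpr1* and *Fpr2*, formyl peptide receptors of which the second also binds serum amyloid A, rose in ATMs by 8.06 and 5.86 on the log2 scale (adjusted p = 3.46e-13 and 8.61e-11, edgeR), alongside the neutrophil markers. *Cd163*, the macrophage receptor for haptoglobin bound to hemoglobin, fell by 4.27 in the same comparison (adjusted p = 5.62e-09, edgeR) and rose by 3.75 in Combo vs Vehicle (adjusted p = 2.81e-08, edgeR), and in Vehicle vs WT its direction was opposite to that of *Hp*. *Csf1r*, the receptor that macrophages depend on, moved like *Cd163*, by -3.52 and 3.82.

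Of the genes of iron and copper handling, 2 were higher and 2 lower of 15 in BM and 4 higher and 4 lower of 18 in ATMs in Vehicle vs WT, beside 9.44% and 10% of all genes in BM and 12.5% and 22.9% in ATMs. *Slc40a1*, the iron exporter ferroportin, had 8343 to 9437 normalized counts in WT BM, 1591 to 1870 in Vehicle and 6760 to 7404 in Combo, a log2 fold change of -2.36 and then 2.06, with the direction of *Steap4*. *Hmox1*, heme oxygenase, was higher in Vehicle vs WT by 1.06 in BM and rose by 1.11 in ATMs (standard error 0.0574, adjusted p = 1.43e-10, edgeR). *Steap3*, another metalloreductase of the family, was lower in Vehicle in BM (-1.19) and fell in ATMs by 2.86 (adjusted p = 1.91e-09, edgeR), while *Steap1* rose there by 2.56 (adjusted p = 5.74e-05, edgeR), so members of the family went in different directions. Without BM WT replicate 1, the counts of the cytokine, acute-phase, receptor and transducer, and transcription factor lists in Vehicle vs WT were the same, those of the acute-phase protein receptors went from 1 to 2 lower and those of iron and copper handling from 2 to 1 higher. The iron and copper gene that lost its call, not named above, went from 1.04 to 0.995 on the log2 scale, just under the limit. The BM genes named above from these lists stayed called in their direction. Of those, *Lif* moved most, from 5.53 to 6.28 on the log2 scale. *Il17f*, named above for ATMs only, went from 4.88 to 5.65 in BM and stayed called.

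The genes most like *Saa3* over the 15 libraries of a tissue are given as a description, since the libraries of a group share their values and Vehicle stands far from the rest. In BM, of 10578 genes with a mean of at least 100 normalized counts, *Chmp4b* (Pearson r 0.996), *Prdx6* (0.995), *Prnp* (0.994), *Ccdc86* (0.991) and *Nfkbia* (0.990) were nearest on a log2 scale. In ATMs, of 12589 genes, *Il2rg* (0.994), *Tlr2* (0.990), *Ly6c2* (0.987), *Hopx* (0.984) and *Wfdc2* (0.980) were nearest. Vehicle had the highest mean and Combo the next highest for each of these 10 genes, *Wfdc2* with 9881 and 1545 normalized counts against 77.4 in WT. Of the other members, *Orm1* was nearest to *Saa3* in BM (0.966), ahead of *Hp* (0.92), *Ptx3* (0.895), *Lcn2* (0.793), *Cp* (0.767) and *Steap4* (-0.525). In ATMs *Hp* (0.921) and *Lcn2* (0.907) were nearest, and *Ptx3* (0.622), *Orm1* (0.583), *Steap4* (-0.238) and *Cp* (-0.457) followed.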

How the data were processed

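RNA of whole BM and of sorted F4/80+ ATMs was sequenced paired-end without strand. The authors aligned the reads with STAR 2.7.2a to the mouse genome mm10, counted read pairs per GENCODE gene with featureCounts 2.0.1, and deposited a table of whole-number counts for each tissue. Both tables were used as deposited. Summed over its 15 libraries, no gene had under 55 counts in BM or under 54 in ATMs, and genes outside a table were not analysed here.

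Each tissue was fitted with all 15 libraries in edgeR 4.0.16 (R 4.3.3) with TMM scaling, filterByExpr (0 genes removed) and the quasi-likelihood test, as 1 group term and contrasts of it. P-values were adjusted by Benjamini-Hochberg over all genes of the tissue, and a gene was called at an adjusted p below 0.05 and an absolute log2 fold change above 1. The standard error is the log2 fold change divided by the root of the F statistic. Normalized counts were scaled to the mean effective library size of the tissue. RPKM used exon lengths of a GENCODE annotation of GRCm38. Tissue differences came from 1 fit of the 13076 genes in both tables. Where one group had 0 counts, folds are bounds from a floor of 3 counts per library. Upstream windows were RefSeq's. The test scripts were checked on simulated counts.

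The members and the gene lists were chosen with earlier results of these data known. Text names all 7 members and, of each other list and tissue, up to 4 called genes with the largest change and a mean of at least 10 counts in Vehicle vs WT and in Combo vs Vehicle, the cytokines *Il17a*, *Il6*, *Il1b* and *Tnf*, marker and sex-linked genes where a check needed them, and the 5 genes most like *Saa3* in each tissue. One gene that this rule names is not reported here. A few genes were also followed into a comparison where they were not among those 4. Alternatives were DESeq2 1.42.0 and its size factors, a mean of at least 50 counts, no filter, no fold-change limit, fits of only the libraries compared, a replicate block and leaving out each library.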

Additional observations from a re-analysis of the deposited data

Results flagged for a closer look

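For each of the 7 genes the change from Vehicle to Combo differed between ATMs and BM in a fit of both tissues (edgeR, false discovery rate below 0.05, which 55.1% of 13076 genes passed). The fit uses the BM Vehicle libraries that were known when the genes were chosen, so the values are a description, without p-values. On the log2 scale, as the change in ATMs minus that in BM, *Saa3* stood at 6.44 (standard error 0.0972), a smaller decrease in ATMs, and *Lcn2* at -2.06 (standard error 0.0789), a larger decrease in ATMs. *Hp* stood at -0.29 (standard error 0.0563). The iron and copper genes went apart, with *Cp* at 1.91 (standard error 0.112) and *Steap4* at -3.12 (standard error 0.124). *Orm1* stood at 1.93 (standard error 0.322), where its ATM change was near 0. *Ptx3* stood at 1.01 (standard error 0.339), and did not pass without BM Combo replicate 1 (0.85) or BM Combo replicate 3 (0.93). BM and ATM libraries may come from the same mice, which the fit did not use.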

How the results depend on the processing

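Removing the fold-change limit raised the number of the 7 genes called from 4 to 7 in BM Combo vs WT, from 3 to 7 in BM Combo vs IL17Ab and from 3 to 6 in ATM Combo vs Vehicle, and *Orm1* in ATM Combo vs Vehicle changed sign without Combo replicate 3 (-0.09) or Vehicle replicate 2 (-0.33), with values from -0.33 to 0.47 when 1 library at a time was left out. With 1 library left out, the count called ranged from 5 to 6 in ATM Combo vs GLP1, 3 to 4 in ATM Combo vs Vehicle, 4 to 5 in ATM Vehicle vs WT, 3 to 4 in BM Combo vs WT and 6 to 7 for the tissue difference, and did not change in the other 12 comparisons. Among the settings that keep all libraries and the limit, calls of the 7 genes also changed for *Hp* in BM Combo vs GLP1 (0.98, under the limit, with a mean of at least 50 counts), *Cp* in ATM Combo vs WT (-0.999, under the limit, with only the libraries compared), *Hp* in ATM Combo vs Vehicle (-1.01, called, by DESeq2 and with its size factors), *Orm1* in ATM Vehicle vs WT (1.25, called by DESeq2) and *Orm1* in ATM Combo vs WT (called by DESeq2 at 1.26 and with only the libraries compared at 1.30). With a replicate block for the pairing of equal replicate numbers, the counts were those without it in all 16 comparisons, 7, 6, 6, 5, 4, 6, 3 and 6 in BM and 4, 5, 5, 3, 4, 6, 4 and 5 in ATMs (Vehicle vs WT, GLP1, IL17Ab and Combo vs Vehicle, Combo vs WT, GLP1 and IL17Ab, departure). Same-numbered libraries of different groups within a tissue did not deviate together (correlations from -0.0781 to 0.192 in BM and -0.0641 to 0.0324 in ATMs). Whether a BM and an ATM library of the same group and number come from 1 mouse was not examined. Depth limited ATM *Orm1* and BM *Ptx3*, whose libraries held few counts in most groups.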
